A study of Mus musculus with 18 samples.

Results

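Centromere-proximal hotspots are the meiotic recombination hotspots of mouse testis that lie in the first stretch of a chromosome next to its centromere. They were taken as all hotspots with a centre below 10 Mb on chromosomes 1 to 16 and 18 of the mm10 genome, in any of 9 maps of DMC1-bound DNA. Mouse centromeres lie at the low-coordinate end of each chromosome, behind an assembly gap of about 3 Mb, so the window held 118.3 Mb of sequence against 2128 Mb elsewhere on the same 17 chromosomes. The maps listed 7952 such hotspots of 153849 on these chromosomes and of 166249 in all, and the 7952 fell on 3555 distinct sites. The 5 tables of H3K4me3 held 4211 bins of 1 kb centred on the hotspots there, 1 bin for each hotspot of the 5 maps they belong to.

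The series measured DMC1 and H3K4me3 by ChIP-seq of whole testis from mice with different alleles of Prdm9. The DMC1 maps came from 1 library per genotype, from males about 10 weeks old, except the B6/B6 map, which the series lists as a re-analysis of a library from other submitters. The infertile F1 males had a PWD mother and a B6 father and carried a PWD and a B6 allele of Prdm9. The reciprocal F1 males came from the opposite cross with the same pair of alleles. The rescue F1 males came from the same direction of cross as the infertile males, as littermates of them in the H3K4me3 samples, and carried the PWD allele with a humanized one, in which the DNA-binding zinc fingers of the mouse protein are replaced by those of the human protein. The Hum/PWD F1 males carried the humanized and PWD alleles from the opposite cross. The B6xCAST F1 males came from a B6 by CAST cross and carried a B6 and a CAST allele of Prdm9. B6/Hum and Hum/Hum males carried 1 or 2 humanized alleles on the inbred C57BL/6J (B6) background, PWD/PWD males were of the wild-derived PWD/PhJ strain, and B6/B6 males had the B6 allele alone. H3K4me3 was counted in 2 biological replicates each of the infertile, reciprocal and rescue F1, at 40 to 50 M usable read pairs, and in 1 library each of Hum/Hum and B6/B6, at 70 to 80 M. Whole testis mixes meiotic with other germ cells and with somatic cells, and no expression was measured, so its cell makeup was not checked. Fewer cells of a type and less signal per cell cannot be told apart.

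PRDM9 is a zinc-finger protein that binds short DNA words in early meiosis and places H3K4me3 on the nucleosomes beside them. Programmed double-strand breaks follow at these sites, and DMC1 coats the single-stranded ends that search the homologous chromosome. Exchange close to a centromere is generally rare in mammals and has been linked to segregation errors. Gene promoters carry H3K4me3 without PRDM9 and are used for breaks where PRDM9 fails to direct them. A hotspot that is cut on both parental chromosomes of a hybrid is called symmetric, and an excess of breaks on 1 parental chromosome is a known feature of infertile PWD by B6 hybrid males.

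The windows below show the DNA at selected centromere-proximal hotspots of each PRDM9 allele. Each is 201 bases of the B6 reference (RefSeq GRCm38.p6, the assembly of mm10, plus strand) centred on a deposited hotspot centre. Words of 8 fixed letters were sought, on both strands, at the 3000 hottest hotspots of each homozygous map outside the centromere-proximal windows, and the word most over-represented against flanking windows was kept for each allele. In the first pair the capitals mark AAAGNNNNAGTC, the word of the PWD/PWD map, at hotspots near Fam110b and in an intron of Akap9, a gene for a centrosomal scaffold protein.
Fam110b chr4:5588802-5589002: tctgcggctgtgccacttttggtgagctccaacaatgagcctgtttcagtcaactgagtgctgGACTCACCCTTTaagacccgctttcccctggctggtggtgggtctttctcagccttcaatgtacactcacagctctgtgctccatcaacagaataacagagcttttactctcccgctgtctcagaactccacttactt
Akap9 chr5:4037782-4037982: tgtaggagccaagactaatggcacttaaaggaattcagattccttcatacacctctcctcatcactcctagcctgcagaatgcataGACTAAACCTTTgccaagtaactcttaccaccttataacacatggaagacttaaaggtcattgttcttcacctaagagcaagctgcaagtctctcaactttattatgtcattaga
In the second pair the capitals mark CCCCNNNNNCCCC, the word of the Hum/Hum map, in windows between genes nearest to Egflam, which encodes an extracellular matrix protein, and to Fam155a.
Egflam chr15:7440737-7440937: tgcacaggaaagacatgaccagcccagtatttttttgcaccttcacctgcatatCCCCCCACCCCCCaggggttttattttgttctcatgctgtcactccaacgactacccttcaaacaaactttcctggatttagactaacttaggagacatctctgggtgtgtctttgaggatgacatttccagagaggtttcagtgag
Fam155a chr8:8995865-8996065: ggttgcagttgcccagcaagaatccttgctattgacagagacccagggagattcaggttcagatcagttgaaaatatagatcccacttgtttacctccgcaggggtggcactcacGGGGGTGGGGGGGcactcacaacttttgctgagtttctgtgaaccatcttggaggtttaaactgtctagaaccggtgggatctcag
In the third pair the capitals mark GATGCTAC, the word of the B6/B6 map, near Asxl2, a gene for a Polycomb-associated protein, and in an intron of Rgs20, a regulator of G-protein signalling.
Asxl2 chr12:3513419-3513619: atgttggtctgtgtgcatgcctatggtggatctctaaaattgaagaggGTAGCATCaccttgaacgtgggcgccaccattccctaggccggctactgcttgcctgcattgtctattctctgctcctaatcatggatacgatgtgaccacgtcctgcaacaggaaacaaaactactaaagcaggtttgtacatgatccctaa
Rgs20 chr1:5027398-5027598: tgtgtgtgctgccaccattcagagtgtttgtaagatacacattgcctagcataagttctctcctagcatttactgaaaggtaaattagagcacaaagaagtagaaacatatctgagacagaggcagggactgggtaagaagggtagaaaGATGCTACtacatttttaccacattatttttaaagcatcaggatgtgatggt
The last set shows a different kind of site. These 3 windows lie in introns within 1 kb of the start of Dmtf1 (a Myb-like transcription factor), Larp4b (an RNA-binding protein) and Lats1 (a kinase of the Hippo pathway), all hotspots of the infertile F1 map, and the capitals mark CpG dinucleotides.
Dmtf1 chr5:9160965-9161165: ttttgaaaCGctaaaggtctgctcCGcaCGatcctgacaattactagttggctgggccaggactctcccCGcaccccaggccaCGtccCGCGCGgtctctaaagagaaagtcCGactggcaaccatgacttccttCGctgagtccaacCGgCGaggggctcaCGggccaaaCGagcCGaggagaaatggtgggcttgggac
Larp4b chr13:9094518-9094718: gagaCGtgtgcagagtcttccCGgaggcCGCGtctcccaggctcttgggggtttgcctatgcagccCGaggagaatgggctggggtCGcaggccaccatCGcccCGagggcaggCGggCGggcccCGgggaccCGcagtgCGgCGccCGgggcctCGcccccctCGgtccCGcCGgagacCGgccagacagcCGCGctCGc
Lats1 chr10:7681462-7681662: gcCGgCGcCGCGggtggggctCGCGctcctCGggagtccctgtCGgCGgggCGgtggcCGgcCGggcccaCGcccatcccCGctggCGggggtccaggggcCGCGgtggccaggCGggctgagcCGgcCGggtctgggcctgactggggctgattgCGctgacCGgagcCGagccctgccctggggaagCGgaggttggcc
The Dmtf1, Larp4b and Lats1 windows held 15, 23 and 24 CpG, while those near Fam110b, in Akap9, near Egflam, near Fam155a, near Asxl2 and in Rgs20 held 3, 0, 1, 3, 5 and 0.

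Each allele's word was found at centromere-proximal hotspots of its own map about as often as at hotspots elsewhere. The PWD word lay in 2.09% of the windows of PWD/PWD hotspots below 10 Mb (95% Wilson interval 1.38 to 3.14%) and in 2.50% of those elsewhere. The humanized word lay in 9.26% (7.33 to 11.6%) of Hum/Hum windows below 10 Mb and 10.8% elsewhere, and the B6 word in 3.31% (2.30 to 4.74%) of B6/B6 windows below 10 Mb and 3.16% elsewhere. Each interval contains the share elsewhere. The 3000 hotspots in which each word was chosen stayed in the share elsewhere, so that share is raised by the choice. They gave 100 of the 464 PWD/PWD hotspots elsewhere with the word, 350 of 1486 for Hum/Hum and 117 of 475 for B6/B6. Among all 201-base windows sampled from the genome below 10 Mb, 1.09% held the PWD word, 1.47% the humanized word and 0.316% the B6 word, against 0.912, 1.73 and 0.383% elsewhere. The 3 words share no run of 4 letters on either strand. The humanized word can match itself at several offsets in a run of C. A match is a description of the letters and not a binding site, and most hotspots of every map held no word.

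Hotspots were about as dense below 10 Mb as elsewhere, and they carried slightly more DMC1 signal per Mb. In the infertile F1 map 1090 hotspots lay below 10 Mb, 9.21 per Mb, against 9.72 per Mb elsewhere. The counts below 10 Mb were 842 for the reciprocal F1, 693 for the rescue F1, 984 for the Hum/PWD F1, 936 for the B6xCAST F1, 748 for B6/Hum, 721 for Hum/Hum, 1073 for PWD/PWD and 865 for B6/B6 males, between 4.96 and 5.46% of the hotspots of each map. The ratio of the density below 10 Mb to that elsewhere was 0.948 for the infertile F1, 0.980 for the reciprocal F1, 0.939 for the rescue F1, 0.971 for the Hum/PWD F1, 1.02 for the B6xCAST F1, 0.939 for B6/Hum, 0.942 for Hum/Hum, 1.04 for PWD/PWD and 1.03 for B6/B6 males. The ratio was thus under 1 in the infertile and reciprocal F1 and in all maps with a humanized allele, and above 1 in the B6xCAST, PWD/PWD and B6/B6 maps. Over the 8 libraries of the series the mean ratio, taken over log2 values here and below, was 0.971 (exact two-sided sign-flip permutation test over libraries, p = 0.0703, adjusted p = 0.113 over 8 tests).

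Heat, the authors' relative DMC1 signal of a hotspot, summed to more per Mb below 10 Mb in most maps. It has a scale of its own in each map, so levels in different maps are set side by side below and not compared. The ratio of summed heat per Mb below 10 Mb to that elsewhere was 0.994 for the infertile F1, 1.12 for the reciprocal F1, 1.06 for the rescue F1, 1.05 for the Hum/PWD F1, 1.1 for the B6xCAST F1, 0.989 for B6/Hum, 1.1 for Hum/Hum, 1.11 for PWD/PWD and 1.11 for B6/B6 males. Among the 8 libraries of the series it was above 1 in 6, with a mean of 1.06 (exact two-sided sign-flip permutation test, p = 0.0312, adjusted p = 0.113). The median heat of a hotspot was 26.4 below 10 Mb and 25.5 elsewhere in the infertile map, and the ratio of these medians averaged 1.04 over the 8 libraries (same exact test, p = 0.0391, adjusted p = 0.113). None of the density and heat differences passed after adjustment. All libraries read the same windows and many share hotspots and Prdm9 alleles, so these p-values measure only how alike the libraries were, and nothing in the labels says how many males gave a DMC1 library.

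**Figure D1:**
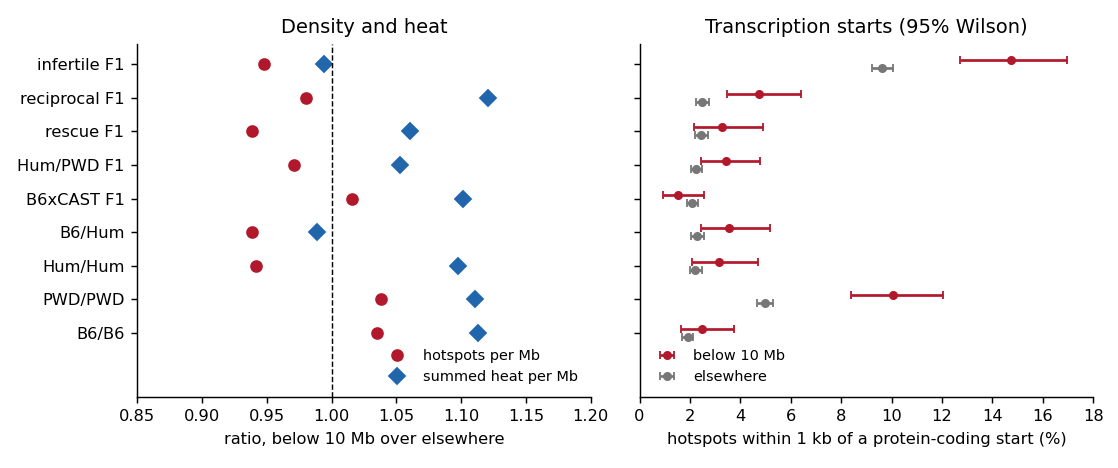
Left, ratio of hotspots per Mb (circles) and of summed DMC1 heat per Mb (diamonds), below 10 Mb over elsewhere on the same 17 chromosomes, for the 9 maps (1 library each); the dashed line is a ratio of 1. Right, percent of hotspots at most 1 kb from the start of a protein-coding transcript, below 10 Mb and elsewhere, with 95% Wilson intervals. Densities lie near 1, and the infertile F1 and PWD/PWD maps stand out on the right, with 14.7 and 10.1% below 10 Mb.

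The near-equal totals hid a wide spread between chromosomes. On chromosomes 14, 7, 1, 3 and 9 the median over the 9 maps of the density ratio was 0.427, 0.512, 0.598, 0.758 and 0.805, and it was under 1 in every map. On chromosomes 12, 11, 2, 10 and 16 it was 1.34, 1.28, 1.28, 1.24 and 1.16, and above 1 in every map. The infertile F1 map held 23 hotspots below 10 Mb of chromosome 14, against 97 in the window of similar length on chromosome 16. The sparse windows were those richest in repeats, with 52.7, 50.7, 47.1, 48.5 and 48.8% of bases masked on chromosomes 14, 7, 1, 3 and 9. The window of chromosome 7 held 41 of the 46 olfactory and vomeronasal receptor genes found below 10 Mb, and no receptor gene had a hotspot within 1 kb of its start in any map, as was true of 652 of all 829 genes below 10 Mb.

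Repeat content was higher below 10 Mb, at 39.8% of bases against 33.2% elsewhere, and it moved with hotspot density in every map. Across the 17 windows Spearman's rho between density and repeat content ranged from -0.907 in the B6/B6 map to -0.767 in the reciprocal F1 map. Across 213 windows of 10 Mb elsewhere it ranged from -0.751 to -0.585. All windows of a map come from 1 library and the maps share windows, so these are descriptions, and reads from repeats also align less often. Among windows with under 35% repeats, the 6 below 10 Mb had a median of 1.22 times the hotspot density of the 139 elsewhere (range over maps 1.09 to 1.25). Among windows with 35 to 45% repeats, 6 below 10 Mb had 1.26 times the density of 71 elsewhere (1.11 to 1.38). Above 45% the 5 windows below 10 Mb had 0.782 times the density of 3 elsewhere (0.714 to 0.989). In each class below 45% the median density below 10 Mb was higher in 9 of 9 maps, set against windows pooled over all 17 chromosomes. Against the rest of their own chromosomes, the 6 windows with 35 to 45% repeats had median ratios from 0.868 (chromosome 13) to 1.08 (chromosome 5). The part of repeats in the density was not tested further.

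**Figure D2:**
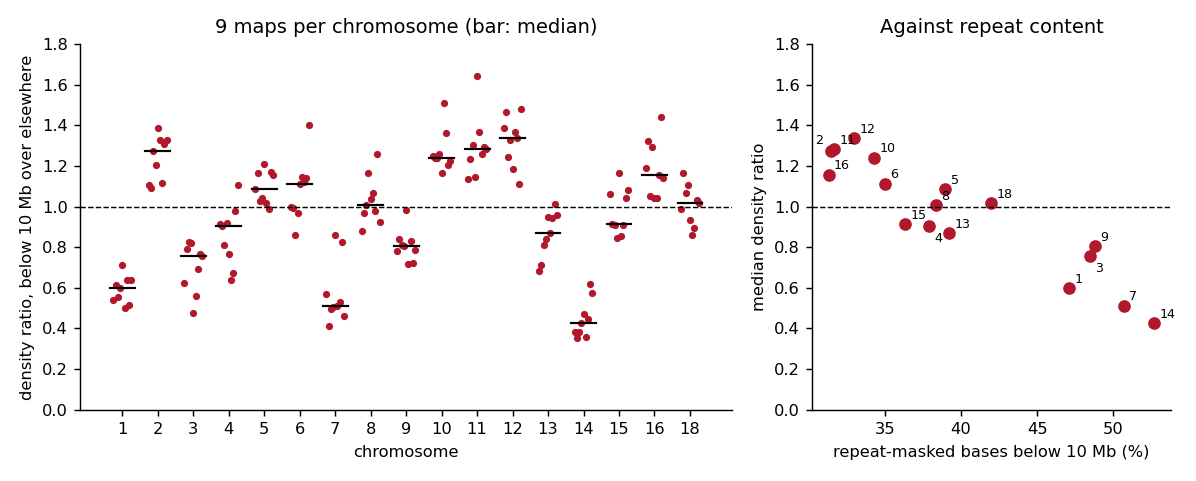
Left, density ratio below 10 Mb over elsewhere for each of the 17 chromosomes, with 1 point per map (9 maps) and a bar at the median. Right, the median ratio of each chromosome, named by its number, against the percent of repeat-masked bases below 10 Mb. Chromosomes 14 and 7, at 52.7 and 50.7% repeats, lie lowest at 0.427 and 0.512.

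Within the first 10 Mb the density had no steady slope away from the centromere. The median over maps of the density in each Mb, relative to elsewhere, was 0.906 from 3 to 4 Mb, 1.14 from 4 to 5 Mb, 0.8 from 6 to 7 Mb and 1.13 from 9 to 10 Mb. Leaving out 1 chromosome at a time moved the mean heat ratio between 1.04 and 1.1. Its unadjusted p was above 0.05 without chromosome 2, 11 or 12 (0.0781, 0.0859 and 0.117). The mean density ratio lay between 0.946 and 1.00 in the same runs. Its unadjusted p fell below 0.05 without chromosome 2, 5, 8, 10, 11, 12, 16 or 18, the lowest being 0.0156 without chromosome 11.

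A fixed set of sites with extreme input stood apart and was kept out where stated. Input above 10 times the median bin marked 16 to 23 of the centromere-proximal hotspots in each map, and these carried from 0.932 to 3.86% of the heat below 10 Mb. Most lay in the first sequenced stretch of their chromosome, and 111 of these entries over the 9 maps lay between positions 3000027 and 3037390 of chromosome 9. In every map the hotspot nearest to a chromosome start was there, at 825 to 895 bp from Gm10722, a predicted gene, with heat from 99.8 in the infertile F1 to 499 in the rescue F1 map. Its bin held 2577 and 3324 ChIP fragments against 6781 input fragments in the infertile F1, so ChIP fragments were fewer than input fragments. Without the high-input hotspots the mean density ratio was lower, as given under the dependence on processing.

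Of the 3555 distinct sites below 10 Mb, 1813 (51.0%) belonged to 1 map, against 50.1% of the 64937 sites elsewhere. At least 8 maps shared 13 sites below 10 Mb, and 12 of these were high-input sites. The other was a chain of neighbouring centres in an intron of Celf2, which encodes an RNA-binding regulator of splicing (chr2:6875120-6876353). It held hotspots of 8 maps with heat from 72 to 645, but not 1 hotspot shared by all of them. The hotspot at chr2:6876351 itself was listed in 4 maps, with heat 596.1 for the rescue F1, 498.9 for the Hum/PWD F1, 645 for B6/Hum and 629.3 for Hum/Hum males.

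The share of symmetric hotspots was slightly lower below 10 Mb in each of the 5 hybrid maps. A hotspot was called symmetric when the B6 chromosome gave from 0.1 to 0.9 of its DMC1 reads that could be assigned to a parent. In the infertile F1 map 55.5% (95% Wilson interval 52.4 to 58.5%) were symmetric below 10 Mb and 57.4% elsewhere, and 57.3% of all its hotspots with a B6 share on these chromosomes. In the reciprocal F1 map the shares were 42.7% (39.2 to 46.3%) below 10 Mb and 45.6% elsewhere (45.5% of all). In the rescue F1 map they were 59.1% (55.0 to 63.1%) below 10 Mb and 60.1% elsewhere (60% of all). In the Hum/PWD F1 map they were 58.6% (55.3 to 61.9%) below 10 Mb and 60.1% elsewhere (60% of all). In the B6xCAST F1 map they were 67.7% (64.4 to 70.8%) below 10 Mb and 71.4% elsewhere (71.3% of all). The mean difference was -2.20 percentage points, lower in 5 of 5 maps (exact two-sided sign-flip permutation test, p = 0.063, the smallest that 5 libraries can give, adjusted p = 0.113). Wilson intervals here cover the counting of hotspots only.

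The share of heat in symmetric hotspots was lower too. It was 28.4% below 10 Mb and 34.9% elsewhere in the infertile F1 map, and 21.3% below 10 Mb and 28.0% elsewhere in the reciprocal F1 map. The shares were 50.4% below 10 Mb and 54.0% elsewhere in the rescue F1 map, 49.0% below 10 Mb and 52.2% elsewhere in the Hum/PWD F1 map, and 49.3% below 10 Mb and 51.4% elsewhere in the B6xCAST F1 map. One-sided hotspots below 10 Mb of the infertile F1 had a median heat of 65.4, which is 3.97 times the 16.4 of symmetric ones there, and elsewhere the median was 3.20 times that of symmetric ones. These shares have 1 library per genotype and were not tested.

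Fewer infertile F1 hotspots could be assigned to a Prdm9 allele below 10 Mb. The authors' assignment covers the 3 maps of the infertile, reciprocal and rescue males. Undetermined hotspots made up 26.9% of the 1090 infertile F1 hotspots below 10 Mb and 18.8% elsewhere, a difference of 8.09 percentage points (95% interval 5.49 to 10.9). PWD-type hotspots made up 41.7% below 10 Mb and 45.3% elsewhere (difference -3.64, interval -6.61 to -0.615), and B6-type hotspots 30.9% below 10 Mb and 35.1% elsewhere (difference -4.14, interval -6.89 to -1.26). Among assigned hotspots alone the PWD share was 57.4% below 10 Mb and 56.4% elsewhere, so the lower PWD share did not hold once undetermined hotspots were set aside (difference 1.02, interval -2.53 to 4.51). In the reciprocal F1 map the undetermined share was 14.8% below 10 Mb and 10.6% elsewhere, and the PWD share 46.1% below 10 Mb and 47.6% elsewhere. These shares keep high-input hotspots. Without them 276 of 293 undetermined infertile F1 hotspots remained below 10 Mb and 3868 of 3885 elsewhere. In the reciprocal F1 112 of 125 remained below 10 Mb and 1618 of 1631 elsewhere. The PWD difference of the infertile F1 was then -3.02 (interval -6.02 to 0.0376).

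In the rescue F1 map the human type was less frequent below 10 Mb. It made up 54.0% there and 60.2% elsewhere (difference -6.27, interval -10.1 to -2.50), while the PWD type made up 30.2% below 10 Mb and 27.0% elsewhere (difference 3.12, interval -0.268 to 6.72). Among assigned hotspots the PWD share was 35.8% below 10 Mb and 31.0% elsewhere (difference 4.87, interval 0.987 to 8.93). By matching to the homozygous maps within 1 kb, 46.8% of rescue F1 hotspots below 10 Mb and 52.5% of those elsewhere matched Hum/Hum alone. For the Hum/PWD F1 these shares were 44.4% below 10 Mb and 48.4% elsewhere. Hotspots matching both Hum/Hum and PWD/PWD were more frequent below 10 Mb. They made up 5.19% there and 1.99% elsewhere in the rescue F1, and 3.96 and 1.70% in the Hum/PWD F1. These shares keep the high-input hotspots, of which 19 lay below 10 Mb in the rescue F1 and 22 in the Hum/PWD F1. High-input sites made up 12 of the 13 sites below 10 Mb found in at least 8 maps, so such hotspots can match both maps. Their part in the difference was not tested. Hotspots matching both maps are not counted in the shares for Hum/Hum alone, which lowers those shares more below 10 Mb. In the B6/Hum map the share matching Hum/Hum alone was 67.8% below 10 Mb and 68.8% elsewhere (difference -1.05, interval -4.57 to 2.29). Its share matching both Hum/Hum and B6/B6 was 3.61% below 10 Mb and 1.91% elsewhere, again with high-input hotspots kept. Differences between these maps were not tested. These intervals cover the counting of hotspots in single libraries.

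Hotspots of the B6 type leaned further to the PWD chromosome below 10 Mb. A B6 share is the fraction of parent-specific reads from the B6 chromosome, so a value near 0 means breaks on the chromosome from PWD. For B6-type hotspots its median was 0.164 below 10 Mb (312 hotspots) and 0.353 elsewhere (6549) in the infertile F1, and 0.107 below 10 Mb (295) and 0.242 elsewhere (5503) in the reciprocal F1. Values under 0.1 were found for 45.8% (40.4 to 51.4%) of those below 10 Mb and 36.0% (34.9 to 37.2%) of those elsewhere in the infertile F1. In the reciprocal F1 they were found for 49.8% (44.2 to 55.5%) below 10 Mb and 42.1% (40.8 to 43.4%) elsewhere. The intervals do not overlap in either cross.

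The lean was spread over many chromosomes. Median B6 shares of B6-type hotspots were lower below 10 Mb on 13 of 17 chromosomes in the infertile F1 and on 12 of 17 in the reciprocal F1. Leaving out any 1 chromosome kept the difference between -0.214 and -0.174 in the infertile F1 and between -0.161 and -0.117 in the reciprocal F1. H3K4me3, from other libraries but at the same hotspots with the same allele types, gave the same direction. The B6 share of H3K4me3 was under 0.1 in 53.0% (46.1 to 59.7%) of B6-type bins below 10 Mb and in 36.4% (35 to 37.7%) elsewhere in the infertile F1. In the reciprocal F1 it was under 0.1 in 54.1% (45.7 to 62.4%) of those bins below 10 Mb and in 45.4% (43.7 to 47.1%) elsewhere. The H3K4me3 intervals overlap in the reciprocal F1 and not in the infertile F1.

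For the other allele types the medians lay closer together. The median B6 share of PWD-type hotspots was 0.694 below 10 Mb and 0.667 elsewhere in the infertile F1, 0.785 below 10 Mb and 0.765 elsewhere in the reciprocal F1, and 0.727 below 10 Mb and 0.704 elsewhere in the rescue F1. Human-type hotspots of the rescue F1 were at 0.471 below 10 Mb and 0.5 elsewhere. Leaving out single chromosomes turned the sign of the PWD-type difference in each of the 3 crosses.

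**Figure D3:**
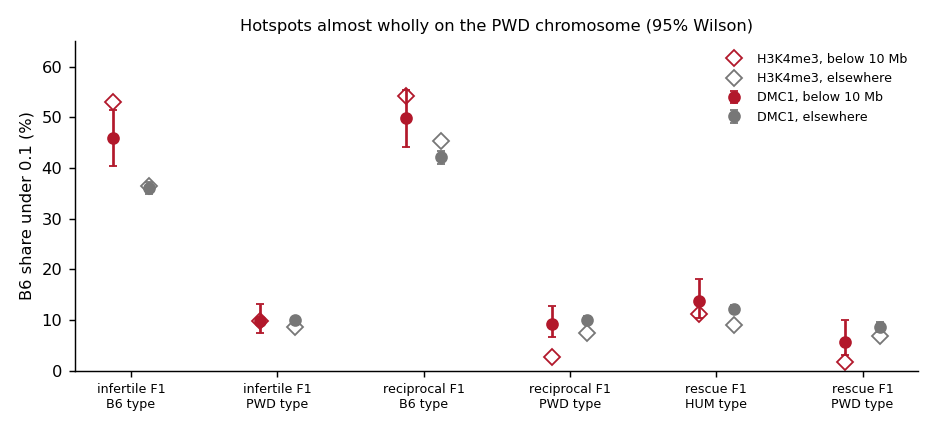
Percent of hotspots of each allele type with a B6 share under 0.1, in 3 F1 crosses, below 10 Mb and elsewhere; filled points are DMC1 (1 library each, 95% Wilson intervals) and open diamonds H3K4me3 (replicates pooled by the authors). B6-type hotspots below 10 Mb lie at 45.8% for DMC1 and 53.0% for H3K4me3 in the infertile F1, against 36.0 and 36.4% elsewhere.

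Hotspots of pure B6 mice were also found again less often in hybrids below 10 Mb. Of the 865 B6/B6 hotspots there, 34.3% lay within 1 kb of an infertile F1 hotspot, against 41.4% of those elsewhere (difference -7.10, interval -10.3 to -3.77). For the reciprocal F1 the shares were 32.5% below 10 Mb and 35.8% elsewhere (difference -3.32, interval -6.46 to -0.0391). Of PWD/PWD hotspots, 44.9% of those below 10 Mb and 46.9% of those elsewhere recurred in the infertile F1 (interval of the difference -5.06 to 1.05). Of Hum/Hum hotspots, 49.8% of those below 10 Mb and 52.6% of those elsewhere recurred in the rescue F1 (interval -6.49 to 0.975). In the B6xCAST F1 19.8% of B6/B6 hotspots below 10 Mb and 19.9% of those elsewhere were found (interval -2.74 to 2.71). Only the shares of B6/B6 hotspots found in the infertile and reciprocal F1 had intervals without 0 among the 11 pairs of maps compared.

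Hotspots at gene starts were more frequent below 10 Mb in 8 of 9 maps, with the highest shares in the infertile F1 and PWD/PWD maps. These counts leave out high-input hotspots. In the infertile F1 158 of 1073 hotspots below 10 Mb, or 14.7% (12.7 to 17%), were at most 1 kb from the transcription start of a protein-coding gene, against 9.63% (9.24 to 10.0%) elsewhere and 9.89% of all its hotspots. In PWD/PWD males the share was 10.1% (8.39 to 12%) below 10 Mb and 4.97% elsewhere, with 5.24% of all hotspots. In the reciprocal F1 it was 4.72% (3.47 to 6.39%) below 10 Mb and 2.49% elsewhere, with 2.6% of all. The shares below 10 Mb and elsewhere were 3.26 and 2.45% in the rescue F1 (2.48% of all), 3.43 and 2.25% in the Hum/PWD F1 (2.31%), 3.56 and 2.28% in the B6/Hum map (2.35%), 3.13 and 2.22% in the Hum/Hum map (2.26%) and 2.48 and 1.91% in the B6/B6 map (1.94%). In the B6xCAST F1 the share was 1.53% below 10 Mb and 2.09% elsewhere (2.06% of all). The Wilson interval below 10 Mb contained the share elsewhere in the rescue F1, Hum/Hum, B6/B6 and B6xCAST F1 maps.

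The mean difference over the 8 libraries of the series was 2.01 percentage points, higher in 7 of 8. The exact two-sided sign-flip permutation test gave p = 0.0156 and an adjusted p of 0.0573 over 11 tests, and this comparison was chosen after seeing the data. In the hotter 0.5 of each map the mean difference was 0.857 (same exact test, p = 0.0938). Below 10 Mb the median heat of infertile F1 hotspots was 13.6 at starts and 32.0 away from starts. The order was the opposite in Hum/Hum males, at 75.1 at starts and 58.9 away. Starts were not more common below 10 Mb, at 17.8 per Mb against 21.3 per Mb elsewhere. The part of hotspots at starts with no allele assigned differed between crosses. It was 139 of 158 below 10 Mb and 1596 of 1990 elsewhere in the infertile F1, 28 of 39 below 10 Mb and 131 of 384 elsewhere in the reciprocal F1, and 6 of 22 below 10 Mb and 71 of 324 elsewhere in the rescue F1. In the infertile F1 139 of the 276 undetermined hotspots below 10 Mb (50.4%) lay at a start, against 41.3% of the undetermined ones elsewhere, while PWD-type hotspots lay there in 2.42% below 10 Mb and 2.56% elsewhere. In the reciprocal F1 28 of 112 undetermined hotspots below 10 Mb (25%) lay at a start, against 8.10% elsewhere.

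Counted by gene, 141 of 829 protein-coding genes below 10 Mb (17%, 14.6 to 19.7%) had an infertile F1 hotspot at the start, against 9.92% of 18203 genes elsewhere. In PWD/PWD males 94 genes (11.3%, 9.36 to 13.7%) did, against 4.04% elsewhere, and in the reciprocal F1 27 genes (3.26%, 2.25 to 4.70%) against 1.23% elsewhere. The shares below 10 Mb and elsewhere were 2.17 and 1.08% in the Hum/PWD F1 and 1.33 and 0.862% in the rescue F1. They were 0.965 and 0.819% in B6/Hum, 0.844 and 0.736% in Hum/Hum and 0.965 and 0.725% in B6/B6 males. In the B6xCAST F1 they were 0.483 and 0.873%. Of these maps only the Hum/PWD F1 had an interval (1.38 to 3.41%) without the share elsewhere. The infertile F1 and PWD/PWD maps had 73 genes with a hotspot at the start in common. That is 51.8% of the first list, against 11.3% of all 829 genes in the PWD/PWD list. It is 77.7% of the second list, against 17% of all 829 genes in the infertile F1 list. Of the 27 genes of the reciprocal F1, 26 were also in the infertile F1 list, which is the longest. The start of Dmtf1, whose window is shown above, was used in 6 maps, with heat 63.0 for the infertile F1, 32.9 for the reciprocal F1, 31.1 for the rescue F1, 19.9 for the Hum/PWD F1, 119.6 for PWD/PWD and 10.8 for B6/B6 males. The shared start of Dbf4, the activator of the replication kinase Cdc7, and Slc25a40, a mitochondrial carrier, was used in 5 maps, with heat 69.7 for the infertile F1, 36.3 for the reciprocal F1, 49.2 for the rescue F1, 21.2 for the Hum/PWD F1 and 101.6 for PWD/PWD males.

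The starts named here were chosen after their values were seen. Mybl1, which encodes the transcription factor A-MYB needed for male meiosis, was used in 5 maps, with heat 22.9 for the infertile F1, 15.1 for the reciprocal F1, 17 for B6/Hum, 47 for PWD/PWD and 15.1 for B6/B6 males. Cd209a, a C-type lectin gene, had heat 57.1 for the infertile F1, 75.9 for the reciprocal F1, 36.2 for the rescue F1, 69.8 for the Hum/PWD F1 and 142 for PWD/PWD males. Frmd4a, a gene for a cell polarity scaffold, had another pattern. Its start was used only in the maps with a humanized allele, with heat 253.4 for the rescue F1, 249 for the Hum/PWD F1, 412.6 for B6/Hum and 313.9 for Hum/Hum males, and in none of the 5 maps without one. Among the genes of a list of 51 genes of meiotic recombination and chromosome axes, 41 were found on these chromosomes and 1 lay below 10 Mb. That gene is Hormad2, an axis protein gene on chromosome 11 (4345814 to 4441105). It held a hotspot in 6 of 9 maps, and had one at its start in 1, the infertile F1, at 88 bp and with heat 10.3.

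The hotspots at starts lay in CpG-rich DNA, counted here over all of them and not only the 3 picked windows above. In the infertile F1 the median number of CpG per 201-base window was 15.5 at starts and 1 away from starts below 10 Mb, and 13 at starts and 1 away from starts elsewhere. In PWD/PWD males it was 15 at starts and 1 away from starts below 10 Mb, and 8 at starts and 1 away from starts elsewhere.

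H3K4me3 was measured as the ratio of summed ChIP to summed input fragments in the bins, without high-input bins, and it split into opposite parts below 10 Mb. Over all bins the ratio below 10 Mb was 1.41 and 1.41 times that elsewhere in the replicates of the infertile F1, 1.83 and 1.74 in the reciprocal F1, 1.11 and 1.08 in the rescue F1, 0.843 in Hum/Hum and 0.959 in B6/B6 males. The mean was 1.25 (exact two-sided sign-flip permutation test over 8 libraries, p = 0.0703, adjusted p = 0.113). The authors marked bins on H3K4me3 peaks that are probably independent of PRDM9. Without these, the ratio was 0.865 and 0.872 in the infertile F1, 0.919 and 0.916 in the reciprocal F1, 0.756 and 0.748 in the rescue F1, 0.761 in Hum/Hum and 0.681 in B6/B6 males, so it was lower below 10 Mb in 8 of 8 libraries. The mean was 0.810 (p = 0.00781 in the same exact test, the smallest 8 libraries can give, adjusted p = 0.0430 over 11 tests). Bins with the mark alone had ratios of 1.1 and 1.11 in the infertile F1, 2.11 and 2.02 in the reciprocal F1, 2.64 and 2.53 in the rescue F1, 1.5 in Hum/Hum and 1.54 in B6/B6 males, higher below 10 Mb in 8 of 8 libraries (mean 1.73, exact sign-flip permutation test, p = 0.00781, adjusted p = 0.0430). The higher ratio in marked bins rests on summed fragments, which bins with many fragments dominate. The median of the authors' enrichment in marked bins was 20.3 below 10 Mb and 12.3 elsewhere in the infertile F1, 2.51 below 10 Mb and 1.43 elsewhere in the reciprocal F1, and 3.32 below 10 Mb and 2.88 elsewhere in the rescue F1. It was lower below 10 Mb in the other two tables, at 1.78 below 10 Mb and 1.86 elsewhere in Hum/Hum and 1.28 below 10 Mb and 1.69 elsewhere in B6/B6 males. The 8 values are not independent, since both replicates of an F1 share 1 input, bin list and mark, and B6/B6 bins were set against the Hum/Hum input. With 1 value per table the exact permutation test of the unmarked bins gave p = 0.063, the smallest that 5 values can give. The split by this mark was chosen after seeing the data. The mark is itself set on H3K4me3 peaks, so bins were split by a quantity related to the one tested. The share of bins it removed was larger below 10 Mb in the infertile F1, reciprocal F1 and B6/B6 tables and smaller in the rescue F1 and Hum/Hum tables. The part of this selection in the ratios was not tested. Over all bins of the infertile F1 the ratio lay above that of either class, and the marked bins there made up a larger share of the bins below 10 Mb than elsewhere.

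**Figure D4:**
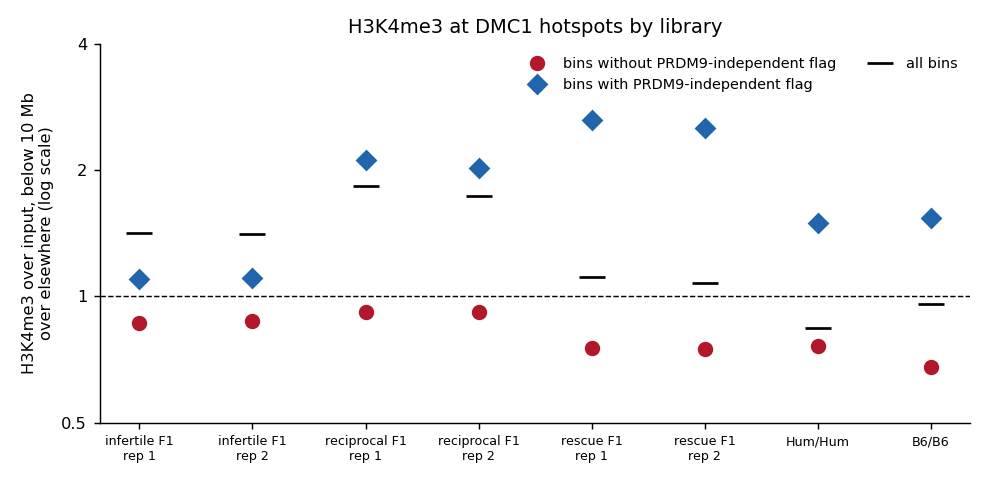
Ratio of ChIP to input fragments in bins below 10 Mb over that in bins elsewhere on the same chromosomes, on a log axis, for each H3K4me3 library, over all bins and for bins without and with the authors' mark of PRDM9-independent peaks. Unmarked bins lie between 0.681 and 0.919 in all 8 libraries.

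The share of marked bins itself differed in direction between crosses. It was 20.9% below 10 Mb and 15.3% elsewhere in the infertile F1 (15.6% of all bins) and 9.08% below 10 Mb and 7% elsewhere in the reciprocal F1 (7.1% of all). It was 5.93% below 10 Mb and 8.59% elsewhere in the rescue F1 (8.46% of all), 4.98% below 10 Mb and 8.08% elsewhere in Hum/Hum (7.93% of all) and 6.26% below 10 Mb and 5.69% elsewhere in B6/B6 males (5.72% of all). The mean difference was 0.491 percentage points (exact sign-flip permutation test over 5 tables, two-sided p = 0.875, adjusted p = 0.875). In the infertile F1 95.6% of the bins at starts below 10 Mb carried the mark and 87.8% of those at starts elsewhere, against 7.98% of bins away from starts below 10 Mb and 7.59% of those elsewhere.

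The lower H3K4me3 of unmarked bins also appeared in the authors' enrichment values. Per the file headers, the enrichment is fitted relative to local background coverage and has a minimum of 0. Its median in unmarked bins was 0.745 below 10 Mb and 0.836 elsewhere in the infertile F1, and 0.3 below 10 Mb and 0.390 elsewhere in the reciprocal F1. It was 0.602 below 10 Mb and 0.881 elsewhere in the rescue F1, 0.511 below 10 Mb and 0.811 elsewhere in Hum/Hum and 0.178 below 10 Mb and 0.404 elsewhere in B6/B6 males. The median was lower below 10 Mb on 11, 10, 12, 13 and 17 of 17 chromosomes in the infertile, reciprocal, rescue, Hum/Hum and B6/B6 tables. In B6/B6 males the level below 10 Mb was 0.441 times that elsewhere, and no chromosome went the other way. Differences between the tables were not tested.

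The share of unmarked bins with a deposited p-value under 0.05 was lower too. It was 75.9% below 10 Mb and 81.7% elsewhere in the infertile F1, where 81.5% of all unmarked bins passed. It was 40.3% below 10 Mb and 46.7% elsewhere in the reciprocal F1 (46.4% of all) and 76.8% below 10 Mb and 87.6% elsewhere in the rescue F1 (87% of all). It was 75.6% below 10 Mb and 89.2% elsewhere in Hum/Hum (88.6% of all) and 47.7% below 10 Mb and 65.7% elsewhere in B6/B6 males (64.7% of all). Input was also slightly lower, with a median of 24 fragments in unmarked bins below 10 Mb and 26 elsewhere in the infertile F1, and 33 below 10 Mb and 38 elsewhere in Hum/Hum males. The part of lower coverage in these shares was not tested.

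The lower H3K4me3 was present within classes of DMC1 heat. The median heat of unmarked bins was higher below 10 Mb in all 5 tables, with a median of 60.9 below 10 Mb and 57.0 elsewhere in the rescue F1 and 52.3 below 10 Mb and 48.4 elsewhere in B6/B6 males. When the bins of each table were divided into 4 equal classes by DMC1 heat, the median enrichment was lower below 10 Mb in 19 of 20 classes and equal, at 0, in the other. In the hottest class it was 2.62 below 10 Mb and 2.97 elsewhere in the infertile F1, 1.22 below 10 Mb and 1.39 elsewhere in the reciprocal F1, 1.56 below 10 Mb and 2.09 elsewhere in the rescue F1, 1.57 below 10 Mb and 2.08 elsewhere in Hum/Hum and 0.777 below 10 Mb and 1.47 elsewhere in B6/B6 males. In 3 classes by GC content it was lower below 10 Mb in 14 of 15, the exception being the class of lowest GC of the infertile F1, at 1.08 times the level elsewhere. Heat and enrichment were correlated in both regions, with a Spearman rho over unmarked bins from 0.677 to 0.785 below 10 Mb and 0.661 to 0.769 elsewhere. These rhos are descriptions over bins that share libraries and depth.

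**Figure D5:**
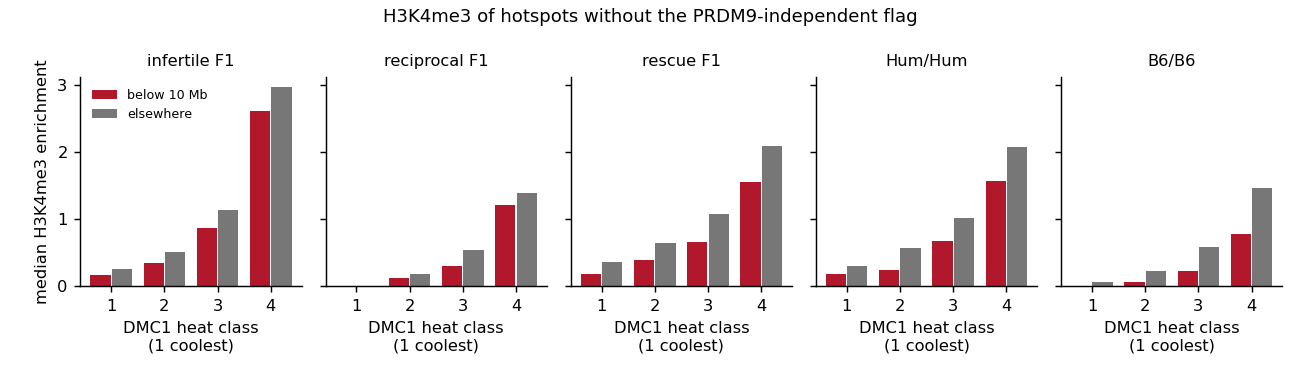
Median authors' H3K4me3 enrichment of unmarked bins in 4 classes of DMC1 heat, below 10 Mb and elsewhere, in the 5 tables. The medians below 10 Mb lie lower in 19 of 20 classes and are equal in the other.

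The lower level was not confined to the first 10 Mb. The values here are medians of unmarked bins relative to the median of all unmarked bins elsewhere. From 10 to 15 Mb the median enrichment was 0.715 in infertile, 0.795 in reciprocal and 0.731 in rescue F1 males. It was 0.819 in Hum/Hum and 0.694 in B6/B6 males. From 30 to 40 Mb it lay between 0.998 in Hum/Hum males and 1.12 in the infertile F1. The first 2 Mb of sequence, from 3 to 5 Mb, were at 1.06 in the infertile F1 and at 0.457 in B6/B6 males. The distal end was low in some tables, with 0.508 in the reciprocal F1 and 0.415 in B6/B6 males in the last 10 Mb, against 0.989 in the rescue F1.

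On either parental chromosome, H3K4me3 was divided much as DMC1 was. With at least 10 informative reads, 58.0% (54.2 to 61.7%) of bins below 10 Mb and 62.4% elsewhere were symmetric in the infertile F1. The shares were 49.6% (44.4 to 54.8%) below 10 Mb and 49.4% elsewhere in the reciprocal F1 and 62.4% (57.5 to 67.1%) below 10 Mb and 66.0% elsewhere in the rescue F1. The ratio of ChIP to input below 10 Mb over elsewhere was 0.37 higher on the log2 scale in the infertile than in the rescue F1, and 0.34 lower in the infertile than in the reciprocal F1. With 2 replicates a cross, the exact two-sided permutation p was 0.33 for both, the smallest it can be (adjusted p = 0.381). Nothing here shows whether the crosses differed.

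The hottest centromere-proximal hotspots showed both one-sided and symmetric use. A pair near Gdnf, the growth factor that keeps spermatogonial stem cells, lay on opposite parental chromosomes. The one at chr15:7652532, intergenic and 158314 bp from Gdnf, had heat 619.8 for the infertile F1, 765.3 for the reciprocal F1 and 545.4 for the B6xCAST F1, with a B6 share of 0.004, 0.004 and 0.008. The one at chr15:7748643, 62203 bp from Gdnf, had heat 592.7 for the infertile F1, 834.5 for the reciprocal F1, 525.3 for the rescue F1 and 612.1 for the Hum/PWD F1, with B6 shares from 0.991 to 0.998, and 160.8 in the B6xCAST F1 with a B6 share of 0.839. Neither was a hotspot in the PWD/PWD or B6/B6 map. H3K4me3 at the first was 81 and 84 ChIP fragments against 16 input fragments in the infertile F1, with a B6 share of 0.0160, and at the second 115 and 102 against 30, with a B6 share of 1. Both marks were thus on the same single chromosome at each site.

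Other one-sided hotspots followed the PWD allele. Sephs1, a selenophosphate synthetase gene, held an intronic hotspot at chr2:4897507 with heat 438.7 for the infertile F1, 501.8 for the reciprocal F1, 730.8 for the rescue F1 and 530.8 for the Hum/PWD F1 and B6 shares of 0.994 or more, against 99.9 in PWD/PWD males. Cdk14, a cyclin-dependent kinase gene, held one at chr5:4964963 with heat from 535.2 to 734.1 in the 4 PWD by B6 hybrids and 195.2 in PWD/PWD males, with B6 shares from 0.980 to 0.996. The hotspot 20200 bp from Esr1, the gene of oestrogen receptor alpha, at chr10:4591393, had heat from 511.9 to 692.6 in the 4 hybrids and 21.2 in PWD/PWD males. All 3 were thus used almost only on the B6 chromosome in the hybrids, and were listed in the PWD/PWD map too.

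Hotspots near Sdcbp and in Ncoa1 were symmetric in the hybrids where they were listed. Sdcbp, which encodes the adaptor syntenin, had an intergenic hotspot 20155 bp away (chr4:6345495) with heat 598.9 for the rescue F1, 563.1 for the Hum/PWD F1, 738.6 for B6/Hum and 526.3 for Hum/Hum males, and B6 shares of 0.55 (rescue F1) and 0.517 (Hum/PWD F1). It was present in the maps with a humanized allele and in no other. Ncoa1, a nuclear receptor coactivator gene, held one in an intron at chr12:4422924 with heat 395.3 for the infertile F1, 411.8 for the reciprocal F1, 587.2 for the rescue F1, 492.8 for the Hum/PWD F1, 102 for the B6xCAST F1 and 439.7 for PWD/PWD males and B6 shares from 0.391 to 0.544. Celf2 held another intronic hotspot at chr2:6687369 with heat from 469.4 to 561.4 in the 4 PWD by B6 hybrids and 532.6 in PWD/PWD males. Its B6 shares in those hybrids ran from 0.843 to 0.921, and the 0.921 of the reciprocal F1 lies outside the range called symmetric. An intronic hotspot of 4930452B06Rik (chr14:8625237) was the hottest of B6/Hum males below 10 Mb but for the Sdcbp one, with heat 680.8, and one 19938 bp from it (chr14:8411254) had heat 459.2 in PWD/PWD males.

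The B6 allele had its own strong sites. The Asxl2 hotspot whose window is shown above had heat 288.4 for the infertile F1, 253.7 for the reciprocal F1, 336.9 for the B6xCAST F1, 599.3 for B6/Hum and 674.1 for B6/B6 males. Its B6 share was 0.342 in the infertile and 0.260 in the reciprocal F1. Atad2b, a bromodomain gene, held a hotspot in a coding exon at chr12:4974158 with heat 185.9 for the infertile F1, 179.1 for the reciprocal F1, 156.4 for the B6xCAST F1, 499.8 for B6/Hum and 603.9 for B6/B6 males and B6 shares from 0.492 to 0.548. Sash1, a signalling scaffold gene, lay 177835 bp from a B6-type hotspot at chr10:9063905 with heat 603.3 for the infertile F1, 789.8 for the reciprocal F1, 6.30 for the Hum/PWD F1 and 570.6 for the B6xCAST F1, which was in none of the 4 homozygous or B6-background maps. Its B6 share was 0.048 in the infertile and 0.057 in the reciprocal F1.

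Among hotspots of the humanized allele, Chd7, a chromatin remodeller gene, held one in an intron at chr4:8811187 with heat 426.8 for the rescue F1, 293.6 for the Hum/PWD F1, 567.6 for B6/Hum and 645.4 for Hum/Hum males. An intronic hotspot of Egflam at chr15:7225704 had heat 530.6 for the rescue F1, 484.7 for the Hum/PWD F1, 110.7 for B6/Hum and 205.4 for Hum/Hum males, with B6 shares of 0.062 (rescue F1) and 0.042 (Hum/PWD F1). The Chd7 hotspot had B6 shares of 0.709 (rescue F1) and 0.755 (Hum/PWD F1), so it was symmetric and the Egflam one was not. The hottest B6xCAST F1 hotspot, 23914 bp from Tpd52 (chr3:9028637), had heat 590.3 and a B6 share of 0.513, and was otherwise listed in the reciprocal F1 map alone, with heat 62.2. The hottest with a B6 share above 0.9 in that cross was in an intron of Rgs17 (chr10:5896072), with heat 529.2 and a B6 share of 0.923.

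In 4 of 5 tables the highest H3K4me3 enrichment below 10 Mb was in a marked bin, and in the reciprocal F1 it was in an unmarked one. At the Dmtf1 start the infertile F1 had 3013 and 2909 ChIP fragments against 47 input fragments, an enrichment of 63.5, and B6/B6 males had 3064 and 3038 in their pseudoreplicates against 90, an enrichment of 33.6. At Larp4b the infertile F1 had 3725 and 3647 against 62 (enrichment 59.8), with a DMC1 heat of 9.70 there. The highest marked bin of the reciprocal F1 was at the Ccny start, with 3422 and 2832 against 134 (enrichment 24.5), and that of Hum/Hum males at the Pcmt1 start, with 2547 and 2525 in the pseudoreplicates against 110 (enrichment 22.8).

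The 2 highest unmarked bins of each table lay away from gene starts. For the reciprocal F1 the highest enrichment was 30.3 in an intron of Gucy1a2 (57 and 61 ChIP against 2 input fragments), and the next was 7.91 in an intron of Gria4 (14 and 20 against 2), and both rest on 2 input fragments and are imprecise. For the infertile F1 they were 12.2 near Sox17, a transcription factor gene (161 and 188 against 14), and 9.68 at a bin 45064 bp from Npbwr1 (133 and 123 against 13). For the rescue F1 they were 9.49 in an intron of Mtmr3, a lipid phosphatase gene (136 and 128 against 13), and 7.83 in an intron of 4930452B06Rik (222 and 234 against 27). Hum/Hum males had 7.67 at a bin 5064 bp from Cd209d (63 and 80 against 9) and 7.25 in Mtmr3 (121 and 135 against 17). B6/B6 males had 5.32 at a bin whose nearest gene was Efnb2, 1665508 bp away (58 and 54 against 10). Their next was 4.72 at a bin whose nearest gene was Klhl29, 1030193 bp away (35 and 35 against 7). The Mtmr3 bin was thus among the highest unmarked ones in both the rescue F1 and Hum/Hum tables, which share the humanized allele.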

How the data were processed

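All values came from tables deposited by the authors. Per the submitters' processing notes, BWA, SAMtools and bedtools were used and the build was mm10, and the hotspot caller is not given in the sources used. The authors made DMC1 heat, a relative signal, and the B6 share is a fraction deposited without read numbers. Per the file headers, H3K4me3 counts are fragments per 1 kb bin, the enrichment is a fitted ratio to local background, and each p-value comes from a likelihood ratio test of that enrichment. The F1 tables also give a B6 fraction of H3K4me3, per the file headers. Per the labels, B6/B6 bins used the Hum/Hum input. DMC1 depths are unknown here.

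Sequenced lengths, repeats (lower-case bases), GC and windows came from GRCm38.p6 (mm10) and genes from GENCODE M21. Hotspots or bins with input above 10 times the table median were left out of H3K4me3, word and gene-start results. Maps were matched within 1000 bp. Each library gave 1 value, tested by exact two-sided sign-flip permutation, with Benjamini-Hochberg adjustment over 8 tests, or 11 with those chosen after seeing the data. Shares carry Wilson and differences Newcombe 95% intervals, which cover counting error only. The text names genes at the 2 hottest hotspots of every map, the hottest symmetric and one-sided hotspots and the highest enrichments. It also names those at the hotspot nearest to a chromosome start and at the site without high input in at least 8 maps. A list of meiotic genes was searched too. The tools were SciPy 1.17.1, pandas 2.3.3, NumPy 2.4.6 and Matplotlib 3.10.9 under Python 3.11.15, and the code was tested on simulated data. The members and lists were chosen with earlier results of these data known. The 3 mm9 lists, the input libraries on their own and the PWD spleen DNA were not used here.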

Additional observations from a re-analysis of the deposited data

Results flagged for a closer look

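Each contrast below, the value below 10 Mb against that elsewhere, pointed in opposite directions in a pair of crosses. The first 2 and the fourth have 1 table or map per cross, the others 1 DMC1 library per cross, and none of the differences between crosses was tested. The share of H3K4me3 bins marked as PRDM9-independent was higher below 10 Mb in the infertile F1 and lower in the rescue F1, so that the contrasts differed by 8.21 percentage points. The share of PWD-type hotspots was lower below 10 Mb in the infertile F1 and higher in the rescue F1, a difference of -6.76 percentage points between the contrasts. Among assigned hotspots alone the directions were not opposite. The contrast was then 1.02 in the infertile F1 (interval -2.53 to 4.51) and 4.87 in the rescue F1. Summed heat per Mb was slightly lower below 10 Mb in the infertile F1 and higher in the rescue F1, a difference of -0.0933 on the log2 scale. The symmetric share of H3K4me3 bins was lower below 10 Mb in the infertile F1 and slightly higher in the reciprocal F1, a difference of -4.68 percentage points. Heat per Mb also differed in direction between the infertile and the reciprocal F1, by -0.173 on the log2 scale.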

How the results depend on the processing

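Of 130 recomputed values, 97 kept their direction and their side of the threshold, or stayed within the stated spread, 7 lost and 3 gained a p below 0.05, 4 moved and 19 reversed. Ratios here are means of log2 values below 10 Mb over elsewhere. The cause of each change was not tested unless given. The density ratio was 0.0335 with a 5 Mb window, -0.0733 (exact permutation p = 0.0234) without high-input hotspots, -0.0553 (exact permutation p = 0.0469) over the 12000 hottest hotspots of each map, and -0.56 when the unsequenced gap counts as length. The median heat ratio missed the threshold at 0.0269 with 5 Mb, 0.0425 without the last 10 Mb, 0.0442 without chromosome 9 and 0.0399 without high-input hotspots. The H3K4me3 ratio over all bins turned to -0.0123 with 5 Mb, -0.46 with high-input bins kept, -0.37 with median fragments per bin, -0.30 without marked bins, -0.49 with the authors' enrichment and -0.59 with that enrichment in unmarked bins. It was -0.27, -0.33 and -0.29 in unmarked bins of low, middle and high GC, and -0.31 in unmarked bins away from starts. The ratio in unmarked bins was -0.34 without replicate 1 and -0.34 without replicate 2, where 5 values cannot reach p below 0.05. The infertile minus reciprocal difference turned to 0.42 with 5 Mb, 0.15 with median fragments and 0.27 with the enrichment. The marked share turned to -0.408 with 15 Mb and -1.32 in the hotter 0.5 of each map, where the gene-start difference was 0.857. The PWD-type difference in the infertile F1 was -0.615 in the hotter 0.5, 0.985 by matching to homozygous maps and 1.02 among assigned hotspots, and 8.22 in the rescue F1 with 5 Mb. The H3K4me3 symmetric difference was 3.32 with 5 Mb and -0.518 with limits of 0.3 to 0.7 in the infertile F1, and 1.44 with 5 Mb in the rescue F1.

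The tests of the regions compared each library or table with itself, below 10 Mb against elsewhere. No pairing between crosses was possible because the labels give no replicate numbers and each DMC1 genotype has 1 library. DMC1 shares have no depth behind them, so their precision per hotspot is unknown. H3K4me3 bins held a median of 24 to 33 input fragments below 10 Mb in unmarked bins, which limits single bins more than sums.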
